A study of Mus musculus with 12 samples.

Results

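Replication-dependent histone genes encode the bulk histones that package newly made DNA. The set described here holds the genes whose mouse symbol starts with Hist1h, Hist2h, Hist3h or Hist4h in GENCODE M21 naming, without pseudogenes. It came to 64 of the 41388 genes in the count tables. There were 6 genes of the linker histone H1 and 18, 15, 12 and 13 of the core histones H2A, H2B, H3 and H4. Of these, 52 lie in the Hist1 cluster on chromosome 13, 9 in Hist2 on chromosome 3, 2 in Hist3 on chromosome 11, and Hist4h4 stands by itself on chromosome 6. Another 3 coding symbols of the same naming, Hist1h2bh, Hist1h2bm and Hist2h2bb, were not analysed here.

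The libraries came from primary cortical neurons of Swiss Webster mouse embryos at embryonic day 16, which received lentivirus at day 5 in vitro and gave RNA at day 10. There were 3 groups of 4 libraries: mutant huntingtin exon 1 with 72 glutamines (Htt-72Q), wild-type exon 1 with 25 glutamines (Htt-25Q), and a control vector without huntingtin. Every group therefore carried a lentivirus, and the endogenous Htt gene of the mouse was present in all of them. The virus delivers only exon 1, a fragment of the protein, and the promoter that drives it is not given in the labels. Total RNA was depleted of ribosomal RNA with Ribo-Zero and was not selected for poly(A), so transcripts without a tail were kept. The labels do not say which libraries came from separate cultures or embryos, beyond a preparation number (22, 24, 26, 27 or 27_1) at the head of each description. The p-values therefore measure the spread between these libraries.

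In dividing cells these genes are transcribed at histone locus bodies, where Npat acts as a coactivator, and their output peaks in S phase. Their messenger RNAs are the exception among animal messenger RNAs in that they end in a short stem-loop and not in a poly(A) tail. The stem-loop is bound by Slbp, and the U7 small nuclear ribonucleoprotein, which holds Lsm10 and Lsm11, directs the cut downstream of it. Neurons have left the cell cycle and take replacement variants such as H3.3 into their chromatin, but some Hist genes are also known to give longer, polyadenylated transcripts in differentiated cells.

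The stem-loop is shown first because it is the feature that sets these transcripts apart, and because its sequence split the classes. The 16-base pattern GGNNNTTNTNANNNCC was searched on the transcript strand in the 100 bases after the stop codon. It was found in 44 of the 50 members whose annotated transcripts reach 30 bases past the stop, or 88.0%, against 0.273% of 20895 other coding genes. All 32 matches outside H4 had stem arms reading GGCTCT and AGAGCC. All 12 matches in H4 had arms reading GGCCCT and AGGGCC, in 10 genes, or GGTCCT and AGGACC, in Hist1h4b and Hist1h4j. Capitals mark the paired arms and lower case the loop, with positions on GRCm38.
Hist1h1c, chr13:23739512-23739527, plus strand: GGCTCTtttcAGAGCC
Hist1h2bb, chr13:23747203-23747218, plus strand: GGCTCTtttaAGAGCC
Hist1h4d, chr13:23581950-23581965, plus strand: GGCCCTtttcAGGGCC
Hist1h4b, chr13:23757366-23757381, plus strand: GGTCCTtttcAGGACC
Hist4h4, chr6:136803998-136804013, minus strand: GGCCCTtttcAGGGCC
The Hist1h1c type with the loop tttc was the commonest, in 24 members, and the Hist1h2bb type with the loop ttta was found in 6. The annotated exons of Hist1h1c (1560 bases) and Hist4h4 (2879 bases) run on well past the stem-loop. A read count does not tell a transcript that ends at the stem-loop from one that goes beyond it. Hist1h2bc, whose annotated exons are spread over chr13:23684199-23692488, had no match in its window.

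Promoters of 58 members were found in the RefSeq table for GRCm38.p6, which gives 250 bases before and 50 after each start. The letters TATAAA, on either strand, occurred in 35 of the 58, or 60.3%, against 13.6% of 32851 promoters in the table. The letters CCAAT, on either strand, occurred in 49 of the 58, or 84.5%, against 37.4% of all. The 3 genes below moved in Htt-72Q neurons, as described further on, and show a promoter with both motifs, one with CCAAT only and one with neither. Capitals mark the motifs, with ATTGG as CCAAT read on the other strand.
Hist1h1b, chr13:21780576-21780875, minus strand: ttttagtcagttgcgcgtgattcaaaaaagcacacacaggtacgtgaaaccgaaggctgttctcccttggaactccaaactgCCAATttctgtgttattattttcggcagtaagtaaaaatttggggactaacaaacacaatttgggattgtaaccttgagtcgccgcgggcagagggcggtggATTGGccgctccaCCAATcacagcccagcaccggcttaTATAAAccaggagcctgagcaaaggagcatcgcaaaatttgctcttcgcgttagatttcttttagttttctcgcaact
Hist1h1c, chr13:23738557-23738856, plus strand: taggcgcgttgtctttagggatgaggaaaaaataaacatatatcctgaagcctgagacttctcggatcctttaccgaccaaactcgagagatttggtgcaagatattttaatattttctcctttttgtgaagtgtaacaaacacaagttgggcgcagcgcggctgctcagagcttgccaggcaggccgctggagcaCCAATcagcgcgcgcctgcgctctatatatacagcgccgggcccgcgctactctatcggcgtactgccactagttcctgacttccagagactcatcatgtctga
Hist4h4, chr6:136804382-136804681, minus strand: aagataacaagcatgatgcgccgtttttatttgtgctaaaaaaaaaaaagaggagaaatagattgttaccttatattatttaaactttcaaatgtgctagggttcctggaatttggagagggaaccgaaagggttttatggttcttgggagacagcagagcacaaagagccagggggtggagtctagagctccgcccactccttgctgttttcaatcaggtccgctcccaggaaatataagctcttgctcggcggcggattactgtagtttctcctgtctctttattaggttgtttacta

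Library totals ran from 12.4 M to 27.5 M counts, and the 64 genes together took 0.0614 to 0.154% of them. Levels are given as TMM-scaled CPM, that is counts scaled to the library total after the trimmed-mean correction of edgeR, unless stated. Neuron markers were high in every library: their summed level over 15 genes was 5930 ± 138 CPM in Htt-72Q, against 7911 ± 593 CPM in Htt-25Q and 8463 ± 550 CPM in the control vector (SD, n = 4 each). Astrocyte markers summed to 2863 ± 204, 2789 ± 324 and 2952 ± 233 CPM over 10 genes in the same order, so astrocyte RNA was present beside that of neurons. Among 10 microglia markers only 1 passed the filter on low counts, and it was not called in any comparison. The 10 summed to 14.1 ± 8.22, 9.69 ± 2.31 and 8.80 ± 3.83 CPM in the same order, with Htt-72Q 3 highest at 26.0 CPM. In such bulk samples, fewer cells of a type and less RNA per cell cannot be told apart. The libraries also fell into 6 with Gapdh at 35.5 to 48.0 CPM and 6 with Gapdh at 9.17 to 20.1 CPM, a split that no label names. The upper 6 were Htt-72Q 1, 2 and 4, Htt-25Q 3 and control vector 2 and 4. Summed levels or their ratios, for all 64 genes and for the classes, are given on both sides of this split. Single genes are not given by side.

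Near-identical coding sequences limit what a count can say about a single histone gene. Of all 50-base words in a member's transcripts, a median of 45.5% occurred in no other gene of the annotation, on either strand. In 9 members the count was 0 in all 12 libraries, and these had 0 to 11.3% unique words, 4 of them none at all. The 55 members with counts had at least 6.0% unique words, although 4 of them lay below 12%. No source used here states how the authors treated reads that fit more than 1 gene, so a listed 0 does not show that a gene was silent. A further 3 members, Hist1h1t, Hist1h2aa and Hist1h2ba, had 14, 3 and 44 counts over all libraries and were not tested. These are known as testis histones.

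**Figure D1:**
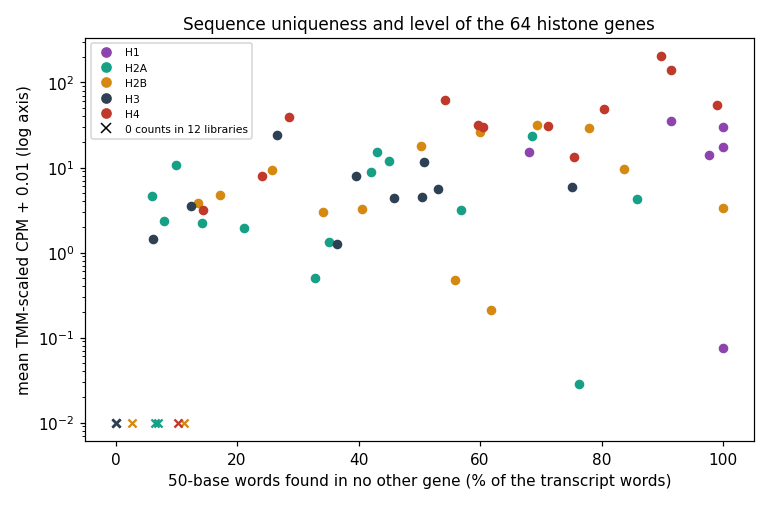
Mean TMM-scaled CPM over 12 libraries, plus 0.01 and on a log axis, against the share of a member's 50-base words found in no other gene (%), with 1 point per member coloured by class. The 9 members at 0 counts, drawn as crosses, all lie at or below 11.3% unique words.

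H4 genes held most of the counted level of the set. They held 61.6% of the summed CPM of all members, against 13.2% for H2B, 10.3% for H1, 8.42% for H2A and 6.47% for H3. Hist1h4d alone held 18.8% and Hist4h4 brought the share to 31.8%, while 12 genes made up 68.2%. Sequence uniqueness differs between members, which limits a comparison of classes. Hist1h4m is the only H4 gene among the 9 members at 0 counts. Hist1h4d and Hist4h4 had 89.8% and 91.5% unique words, against a median of 45.5% over all members, although Hist1h4k had 28.5%. The part of uniqueness in the class shares was not tested. Per length, Hist1h4d stood at 519 CPM per kilobase over the 12 libraries, and the next 3 were Hist1h4h at 130, Hist1h4k at 127 and Hist1h4c at 125 CPM per kilobase. Hist4h4, with its long annotated exons, came to 48.8 CPM per kilobase, close to the H2B gene Hist3h2ba at 47.9 and the H1 gene Hist1h1a at 46.0 CPM per kilobase.

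The summed level of the 64 genes was higher in Htt-72Q neurons than in both other groups. It was 1253, 1465, 1410 and 1244 CPM in Htt-72Q 1 to 4, against 989, 887, 1045 and 839 CPM in Htt-25Q 1 to 4 and 631, 1067, 941 and 1209 CPM in control vector 1 to 4. All 4 Htt-72Q libraries lay above all 8 others, although control vector 4 came close to Htt-72Q 4. The means were 1343 ± 112, 940.02 ± 93.8 and 962 ± 246 CPM (SD, n = 4 each). That made Htt-72Q 1.40 times control vector and 1.43 times Htt-25Q, while Htt-25Q was 0.977 times control vector.

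The size of this difference varied between preparations. Within preparations, the log2 ratio of Htt-72Q to control vector was 0.99 in 22, 0.46 in 24, 0.58 in 26 and 0.041 in 27_1. The ratio of Htt-72Q to Htt-25Q was 0.34 in 22, 0.72 in 24 and 0.25 in 27_1. It also varied with the Gapdh split: on the high side the mean was 1320 CPM in 3 Htt-72Q libraries, 1045 CPM in 1 Htt-25Q library and 1138 CPM in 2 control vector libraries. On the low side it was 1410 CPM in 1 Htt-72Q library, 905 CPM in 3 Htt-25Q libraries and 786 CPM in 2 control vector libraries. Htt-72Q was thus highest on both sides, by a log2 ratio to control vector of 0.21 on the high side and 0.84 on the low side. Other short coding genes, under 1000 bases, took 1.51 ± 0.236% of counts in Htt-72Q, 1.29 ± 0.0118% in Htt-25Q and 1.27 ± 0.229% in control vector (SD, n = 4 each). The share of counts from mitochondrial ribosomal RNA averaged 13.1 ± 1.83% in Htt-72Q, against 10.7 ± 2.34% in Htt-25Q and 8.98 ± 3.54% in the control vector (SD, n = 4 each). The log2 ratio of the summed level to control vector was 0.48 with TMM scaling and 0.56 with library totals only. With library totals taken without mitochondrial genes, also without TMM scaling, the ratio was 0.63 to control vector and 0.62 to Htt-25Q. The step from 0.48 to 0.63 thus holds a change of scaling as well as the removal of mitochondrial genes. The part of the short genes in the result was not tested.

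**Figure D2:**
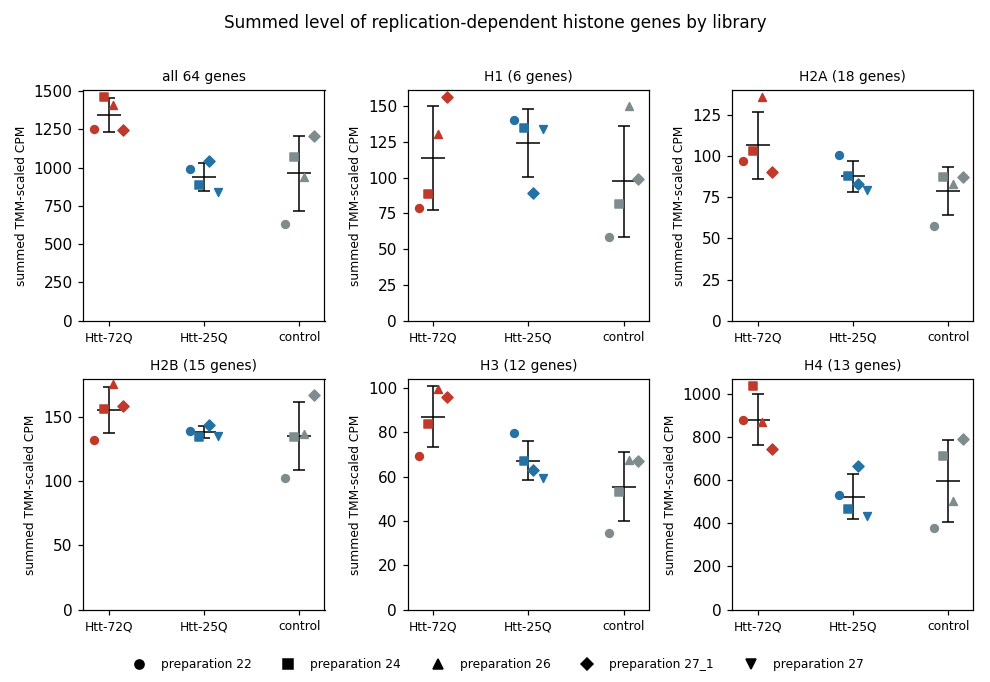
Summed TMM-scaled CPM of all 64 genes and of each histone class in every library, with bars for mean ± SD (n = 4) and marker shapes for the preparation number. The 4 Htt-72Q libraries lie above the 8 others for all genes together, and the H4 panel carries most of that sum.

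By class, the separation was in H4, H3 and H2A. H4 genes summed to 880 ± 119 CPM in Htt-72Q, against 523 ± 104 CPM in Htt-25Q and 595 ± 189 CPM in the control vector (SD, n = 4 each), and the ranges were apart from Htt-25Q but not from control vector. H3 genes summed to 87.1 ± 13.6, 67.3 ± 8.90 and 55.6 ± 15.5 CPM in the same order, apart from control vector but not from Htt-25Q. H2A genes, at 107 ± 20.4, 87.7 ± 9.33 and 78.8 ± 14.4 CPM, were likewise apart from control vector only. H2B genes, at 155 ± 18.1, 138 ± 4.48 and 135 ± 26.2 CPM, and H1 genes, at 113 ± 36.3, 124 ± 23.7 and 97.3 ± 38.9 CPM, overlapped between all groups. On the Gapdh-high side the H4 sum was 885 CPM in Htt-72Q, against 666 CPM in Htt-25Q and 750.3 CPM in the control vector, and on the low side it was 868, 475 and 440.5 CPM. Over control vector, the log2 ratio for H1, H2A, H2B and H3 was 0.26, 0.15, -0.018 and 0.47 on the high side. On the low side, with 1 Htt-72Q library, it was 0.32, 0.95, 0.55 and 0.96. The H1 ratio to Htt-25Q was 0.28 on the high side and -0.058 on the low side. Within preparation 27_1 the ratio to control vector was 0.053 for H2A, 0.52 for H3 and -0.087 for H4. Within preparation 22 the ratio to Htt-25Q was -0.056 for H2A, -0.20 for H3 and 0.73 for H4.

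The edgeR quasi-likelihood test was run on all genes with 12 libraries in 1 fit, and a gene is called here at a Benjamini-Hochberg adjusted p under 0.05. In Htt-72Q against control vector, 7 histone genes rose, 2 fell and 43 were not called, out of 52 tested. Among all 14707 genes tested, 23.2% were called, 9.44% as higher and 13.7% as lower, against 13.5% and 3.85% of the histone genes. The median log2 fold change was 0.47 over the histone genes, with 46 of 52 above 0, against 0.03 over all genes. Over 348 other coding genes under 1000 bases it was 0.26, with 8.33% called higher and 3.16% called lower. The 4 Htt-72Q libraries lay wholly above the control vector libraries in 6 histone genes and wholly below in 2, against 10.1% and 13.6% of all genes. With the preparation number as a block, 16 histone genes rose and 2 fell, against a background of 13.4% of all genes called higher and 17.2% called lower. Preparation 27 holds 1 library, Htt-25Q 4, which this block takes up entirely. Comparisons with Htt-25Q under the block therefore rest on Htt-25Q 1 to 3, so a call lost there may also reflect the missing library.

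**Figure D3:**
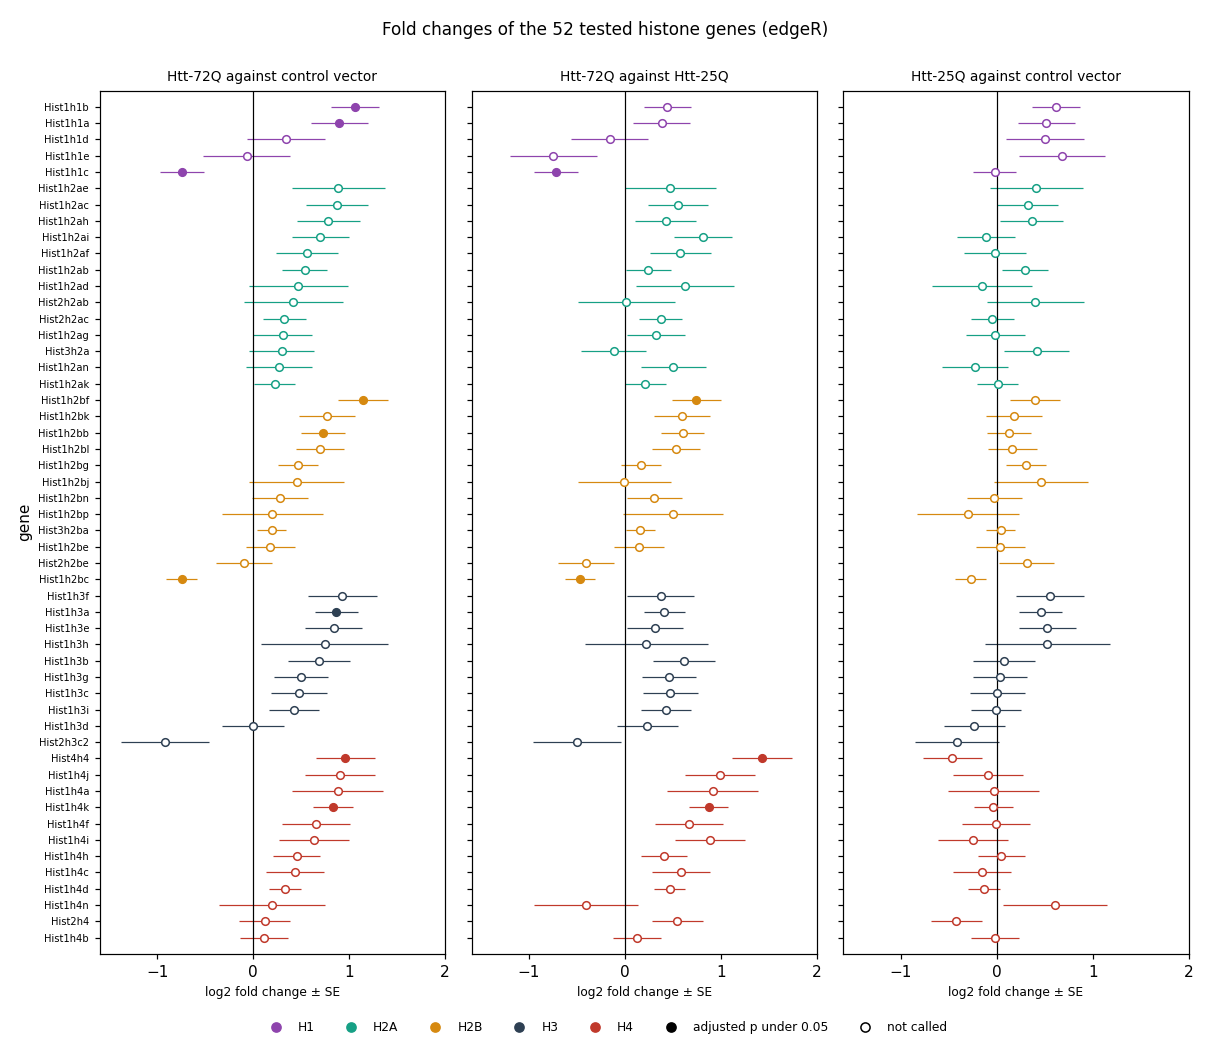
Log2 fold change ± SE of the 52 tested histone genes in the 3 comparisons, by class, with filled circles for an adjusted p under 0.05. Most genes lie right of 0 in both Htt-72Q panels, with Hist1h1c and Hist1h2bc to the left, and no circle is filled for Htt-25Q against control vector.

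Linker histones H1 bind the DNA between nucleosomes and compact chromatin, and they split in direction. Hist1h1b and Hist1h1a rose in Htt-72Q neurons over control vector, while Hist1h1c, an H1 found in most cell types, fell. Hist1h1b had 18.2, 16.2, 27.0 and 34.0 CPM in Htt-72Q 1 to 4, 19.6, 17.0, 14.4 and 19.5 CPM in Htt-25Q 1 to 4, and 8.49, 8.84, 15.3 and 13.2 CPM in control vector 1 to 4. All Htt-72Q libraries lay above all control vector libraries, and Htt-25Q overlapped with Htt-72Q. Its log2 fold change over control vector was 1.06 ± 0.25 (SE), with an adjusted p of 0.00706, and it stayed at or below 0.0293 when any 1 library was left out. All of its 50-base words were unique, so its reads are not shared with another histone gene.

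Hist1h1a had 22.8, 30.2, 49.1 and 51.9 CPM in Htt-72Q 1 to 4, 36.3, 30.7, 21.1 and 29.98 CPM in Htt-25Q 1 to 4, and 12.8, 14.9, 29.5 and 25.4 CPM in control vector 1 to 4. The groups overlapped, but within each of the 4 shared preparations the Htt-72Q library was the higher, by 0.73 to 1.03 on the log2 scale. Hist1h1a rose over control vector by 0.90 ± 0.30 on the log2 scale (SE, adjusted p = 0.0424). It lost its call, with adjusted p up to 0.125, without Htt-72Q 3 or 4, Htt-25Q 2 or 4, or control vector 1 or 2. Hist1h1c had 24.2, 23.7, 19.6 and 29.5 CPM in Htt-72Q 1 to 4, 39.2, 46.3, 34.1 and 40.3 CPM in Htt-25Q 1 to 4, and 22.2, 42.2, 57.4 and 40.9 CPM in control vector 1 to 4. Control vector 1 was the exception among the controls, at the level of the Htt-72Q libraries. The log2 fold change was -0.74 ± 0.23 against control vector (adjusted p = 0.0290) and -0.72 ± 0.23 against Htt-25Q (adjusted p = 0.0347). The call against control vector was lost, with adjusted p up to 0.0852, without Htt-72Q 2 or 3 or control vector 2 or 3. The call against Htt-25Q was lost, with adjusted p up to 0.0907, without Htt-72Q 1, 2 or 3 or Htt-25Q 1, 2 or 4.

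Of the H2A genes, whose products pair with H2B on the outside of the nucleosome, none of 13 was called in either Htt-72Q comparison. All 13 had positive log2 fold changes over control vector, from 0.22 in Hist1h2ak to 0.89 in Hist1h2ae. Hist1h2ac came nearest to a call at 0.88 ± 0.32 (SE, adjusted p = 0.0641), with 4.53, 4.98, 9.48 and 3.82 CPM in Htt-72Q 1 to 4 against 1.496, 3.64, 3.53 and 3.77 CPM in control vector 1 to 4. It passed with the preparation block, at an adjusted p of 0.0397, and its adjusted p ran from 0.04001 to 0.215 with 1 library left out.

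Among the 12 tested H2B genes, Hist1h2bb and Hist1h2bf rose over control vector and Hist1h2bc fell. Hist1h2bf, a gene of low level, had 3.87, 4.02, 4.14 and 5.27 CPM in Htt-72Q 1 to 4, 3.25, 2.42, 2.28 and 2.39 CPM in Htt-25Q 1 to 4, and 1.58, 1.61, 1.71 and 3.05 CPM in control vector 1 to 4. The Htt-72Q libraries lay above the other 8. The log2 fold change was 1.14 ± 0.26 over control vector (adjusted p = 0.00537) and 0.75 ± 0.25 over Htt-25Q (adjusted p = 0.0460), and the second lost its call with the preparation block (adjusted p = 0.0881). Leaving out any 1 of Htt-72Q 1 to 4, Htt-25Q 2, 3 or 4 or control vector 2 or 3 also ended the second call, with adjusted p up to 0.123. Only 34.2% of its words were unique, and Hist1h2bg shared the most with it.

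Hist1h2bb had 26.7, 32.5, 44.2 and 36.0 CPM in Htt-72Q 1 to 4, 24.7, 21.4, 26.2 and 19.5 CPM in Htt-25Q 1 to 4, and 12.5, 21.5, 19.96 and 30.3 CPM in control vector 1 to 4. Its Htt-72Q values were above all Htt-25Q values and overlapped only with control vector 4. Over control vector it rose by 0.73 ± 0.23 on the log2 scale (SE, adjusted p = 0.0321), and the call was lost, with adjusted p up to 0.0970, without Htt-72Q 2, 3 or 4 or control vector 1, 2 or 3. Over Htt-25Q it was 0.60 ± 0.23 (adjusted p = 0.0733), not called.

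Hist1h2bc had the opposite sign from most of its class, with 24.3, 27.3, 22.6 and 19.3 CPM in Htt-72Q 1 to 4, 25.4, 33.1, 36.1 and 34.9 CPM in Htt-25Q 1 to 4, and 31.5, 43.6, 37.6 and 44.0 CPM in control vector 1 to 4. All Htt-72Q libraries lay below all control vector libraries, with Htt-25Q between them on average. Its log2 fold change was -0.74 ± 0.16 against control vector (adjusted p = 0.00393), at most 0.0146 with any 1 library left out. Against Htt-25Q it was -0.47 ± 0.16 (adjusted p = 0.0473), and the call was lost with the preparation block (adjusted p = 0.1001). It was also lost, with adjusted p up to 0.136, without Htt-72Q 1, 3 or 4, Htt-25Q 2, 3 or 4, or control vector 2 or 3. Hist1h1c and Hist1h2bc were the only called members that fell in these comparisons.

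**Figure D4:**
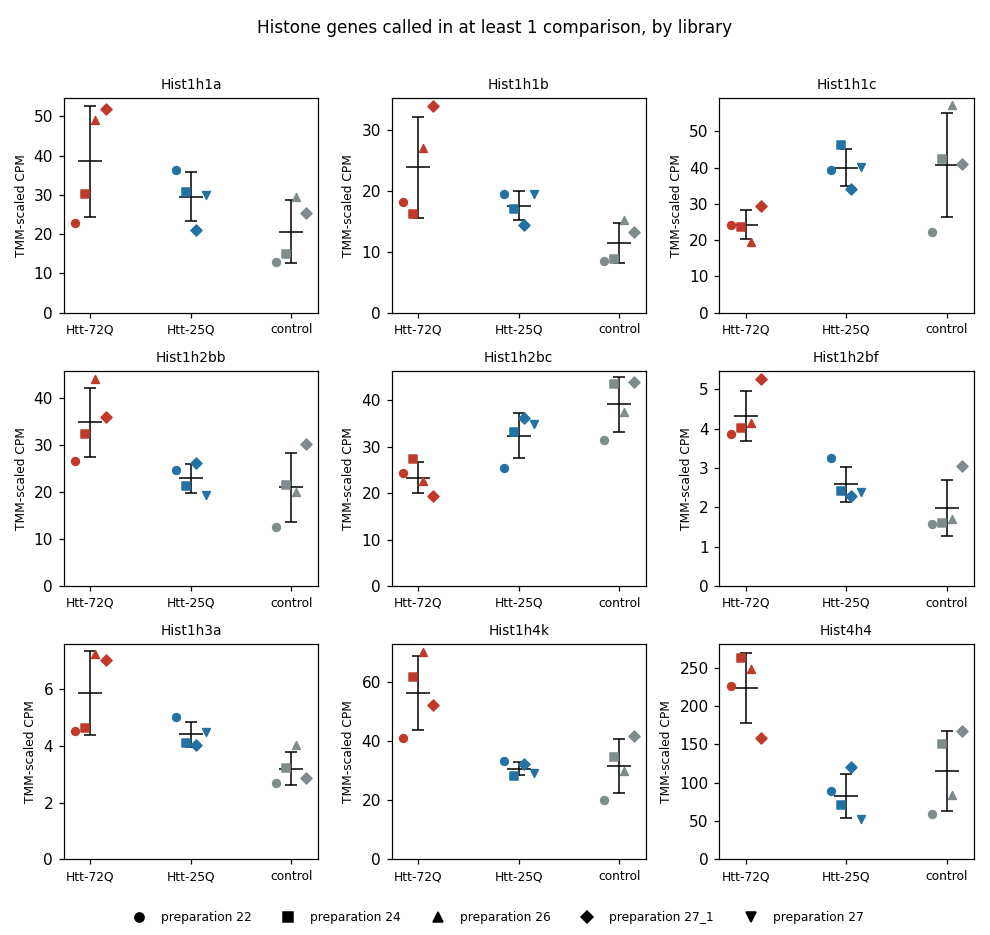
TMM-scaled CPM by library of the 9 histone genes called in at least 1 comparison, with bars for mean ± SD (n = 4) and marker shapes for the preparation number. Hist1h1c and Hist1h2bc are lower in Htt-72Q, and the other 7 are higher in Htt-72Q than in control vector on average.

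H3 and H4 form the core tetramer of the nucleosome. Of 10 tested H3 genes, Hist1h3a rose over control vector, with 4.53, 4.64, 7.25 and 7.06 CPM in Htt-72Q 1 to 4, 5.02, 4.09, 4.04 and 4.49 CPM in Htt-25Q 1 to 4, and 2.68, 3.23, 4.03 and 2.89 CPM in control vector 1 to 4. The Htt-72Q and the Htt-25Q libraries both lay above the control vector libraries, by a narrow gap for Htt-25Q. The log2 fold change over control vector was 0.87 ± 0.22 (SE, adjusted p = 0.0115), at most 0.0351 with any 1 library left out. Hist1h3e, the most abundant H3 gene, averaged 30.6 ± 11.1 CPM in Htt-72Q, against 24.6 ± 5.41 CPM in Htt-25Q and 17.1 ± 6.64 CPM in the control vector (SD, n = 4 each), and missed the threshold over control vector at 0.84 ± 0.30 (SE, adjusted p = 0.0549). It passed with the preparation block, at an adjusted p of 0.0155, and its adjusted p ran from 0.0161 to 0.151 with 1 library left out. Hist2h3c2 differed in sign, with 1.18, 1.16, 0.0796 and 0.966 CPM in Htt-72Q 1 to 4 against 1.496, 2.15, 1.31 and 1.61 CPM in control vector 1 to 4. Its ranges were apart, but at -0.92 ± 0.46 (adjusted p = 0.170) it was not called.

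All 12 tested H4 genes, which encode the same or nearly the same protein, had positive log2 fold changes over control vector, from 0.11 to 0.96, and 2 of them were called. Hist4h4 had 226, 262, 248 and 159 CPM in Htt-72Q 1 to 4, 89.3, 70.6, 120 and 52.3 CPM in Htt-25Q 1 to 4, and 58.6, 150, 84.3 and 167 CPM in control vector 1 to 4. The Htt-72Q libraries lay above all Htt-25Q libraries, while control vector 4 reached the level of Htt-72Q 4. The log2 fold change was 0.96 ± 0.31 over control vector (adjusted p = 0.0358) and 1.43 ± 0.31 over Htt-25Q (adjusted p = 0.00433). Within preparations 22, 24, 26 and 27_1 the log2 ratio to control vector was 1.94, 0.80, 1.56 and -0.071. The call over control vector was lost, with adjusted p up to 0.0962, without Htt-72Q 1, 2 or 3 or control vector 1 or 3. The call over Htt-25Q was kept with any 1 library left out, at an adjusted p of at most 0.0168.

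Hist1h4k had 40.9, 61.7, 70.2 and 52.3 CPM in Htt-72Q 1 to 4, 33.2, 28.2, 32.2 and 29.4 CPM in Htt-25Q 1 to 4, and 20.2, 34.6, 30.04 and 41.7 CPM in control vector 1 to 4. Only control vector 4 reached the range of Htt-72Q. The log2 fold change was 0.84 ± 0.21 over control vector (adjusted p = 0.00880) and 0.87 ± 0.20 over Htt-25Q (adjusted p = 0.00700), and both were kept with any 1 library left out. Only 28.5% of its words were unique, and Hist1h4a shared the most with it.

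The other abundant H4 genes were not called. Control libraries differed widely in them except in Hist1h4d, whose SD was 31.3 CPM in control vector and 48.7 CPM in Htt-72Q. Hist1h4d had 280, 289, 194 and 208 CPM in Htt-72Q 1 to 4, 175, 150, 217 and 161 CPM in Htt-25Q 1 to 4, and 182, 202, 157 and 231 CPM in control vector 1 to 4. Within Htt-72Q its values were high in libraries 1 and 2, and within the other groups in Htt-25Q 3 and control vector 4. Hist1h4a averaged 46.3 ± 15.6 CPM in Htt-72Q, against 24.5 ± 12.3 CPM in Htt-25Q and 25.3 ± 17.2 CPM in the control vector, and Hist1h4c averaged 61.4 ± 16.3, 40.8 ± 10.4 and 45.5 ± 21.0 CPM (SD, n = 4 each). Hist1h4f averaged 39.7 ± 4.34, 24.97 ± 7.46 and 25.3 ± 14.4 CPM, and Hist1h4h averaged 74.5 ± 12.9, 56.1 ± 7.68 and 54.5 ± 21.1 CPM. Hist1h4i averaged 42.8 ± 16.5, 23.1 ± 8.24 and 27.6 ± 12.2 CPM, and Hist2h4 averaged 62.0 ± 15.1, 42.4 ± 8.40 and 57.0 ± 21.5 CPM. Hist1h4a and Hist1h4f passed over control vector with the preparation block, at adjusted p of 0.0198 and 0.0406.

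Against Htt-25Q, 3 histone genes rose (Hist1h2bf, Hist1h4k and Hist4h4), 2 fell (Hist1h1c and Hist1h2bc) and 47 were not called. Among all genes tested, 22.5% were called, 9.06% as higher and 13.4% as lower. The median log2 fold change was 0.42 over the histone genes, against 0.03 over all genes and 0.20 over the other coding genes under 1000 bases, of which 7.47% were called higher and 3.74% lower. The ranges of the libraries were apart in 6 histone genes with Htt-72Q above and in 1 with Htt-72Q below, against 11.6% and 15.1% of all genes. Both Htt-72Q comparisons share the Htt-72Q libraries, so their values are given side by side and were not counted as separate evidence. The preparation block left 4 genes higher (Hist1h4d, Hist1h4j, Hist1h4k and Hist4h4) and Hist1h1c lower, against a background of 7.84% of all genes called higher and 13.4% called lower.

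No histone gene was called in Htt-25Q against control vector, where 0.0% of 14707 genes were called (edgeR). At an unadjusted p under 0.05 there were 129 genes, of which 1 was a histone gene, and DESeq2 and limma voom also called no histone gene. That gene was Hist1h1b, at a log2 fold change of 0.62 ± 0.25 (SE, unadjusted p = 0.0259). Hist1h3a followed at 0.46 ± 0.22 (unadjusted p = 0.0589), and Hist1h3e, Hist1h1a and Hist1h2bc stood at 0.53 ± 0.30, 0.52 ± 0.30 and -0.27 ± 0.16. The median over the 52 histone genes was 0.04, with 29 above 0, and 37 were above 0 with the preparation block. Below 0 were 10 of 12 H4 genes, against 5 of 12 with the preparation block. The ranges of the libraries were apart in 1 histone gene, Hist1h3a, with Htt-25Q above, against 0.673% of all genes, and in none with Htt-25Q below, against 0.32% of all genes. None of these differences passed the test.

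Of 21 tested genes that make, trim or degrade histone messenger RNA, 2 rose, 1 fell and 18 were not called over control vector, beside 9.44% of all genes called higher and 13.7% called lower. Over Htt-25Q 2 rose, 2 fell and 17 were not called, beside 9.06% and 13.4% of all genes. Slbp, the stem-loop binding protein, had 37.5, 43.2, 48.1 and 49.5 CPM in Htt-72Q 1 to 4, 35.2, 35.1, 29.0 and 32.1 CPM in Htt-25Q 1 to 4, and 22.0, 24.2, 26.6 and 29.3 CPM in control vector 1 to 4. Its Htt-72Q libraries lay above the other 8, at a log2 fold change of 0.81 ± 0.14 over control vector (adjusted p = 0.000751) and 0.44 ± 0.14 over Htt-25Q (adjusted p = 0.0315). Lsm11, the U7-specific ring protein, had 93.0, 95.2, 88.2 and 96.9 CPM in Htt-72Q 1 to 4, 228, 209, 280 and 281 CPM in Htt-25Q 1 to 4, and 303, 270, 235 and 301 CPM in control vector 1 to 4. The groups were far apart, with a log2 fold change of -1.57 ± 0.13 against control vector (adjusted p = 1.47e-06) and -1.42 ± 0.13 against Htt-25Q.

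Ncbp2, the small subunit of the cap-binding complex, averaged 61.5 ± 11.4 CPM in Htt-72Q, against 41.1 ± 3.09 CPM in Htt-25Q and 41.8 ± 3.56 CPM in the control vector (SD, n = 4 each) and rose over both. Eri1, an exonuclease that trims the histone stem-loop, averaged 16.8 ± 1.29, 22.9 ± 2.67 and 22.0 ± 2.50 CPM and fell against Htt-25Q (adjusted p = 0.0334). Npat, at 34.9 ± 6.202, 27.4 ± 0.745 and 26.7 ± 3.84 CPM, was not called in either comparison.

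**Figure D5:**
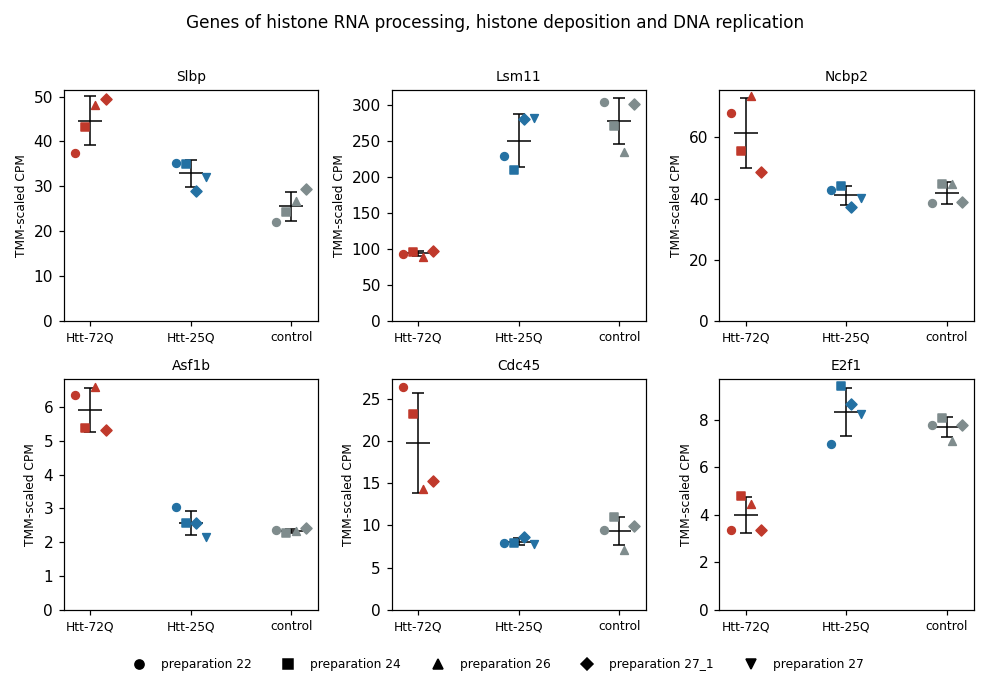
TMM-scaled CPM by library of 6 genes from the lists of histone RNA processing, histone chaperones and DNA replication, with bars for mean ± SD (n = 4) and marker shapes for the preparation number. Slbp, Ncbp2, Asf1b and Cdc45 are higher in Htt-72Q and Lsm11 and E2f1 are lower, with no overlap between Htt-72Q and control vector in any panel.

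Replacement variants are made outside S phase as well. Among 11 tested only H2afy, which encodes macroH2A1, was called, in both Htt-72Q comparisons, with 98.5 ± 12.7 CPM in Htt-72Q, against 73.6 ± 2.71 CPM in Htt-25Q and 70.3 ± 6.31 CPM in the control vector (SD, n = 4 each). H3f3b, an H3.3 gene and the most abundant of the list in Htt-72Q, averaged 146 ± 51.5, 133 ± 17.9 and 102 ± 20.05 CPM and was not called. Of 26 histone chaperones, 4 rose and 2 fell over control vector, beside 9.44% of all genes called higher and 13.7% called lower. Over Htt-25Q 2 rose and 2 fell, beside 9.06% and 13.4% of all genes. The same shares of all genes stand beside the 11 tested variants. Asf1b, which hands H3 and H4 to the assembly factors, had 6.36, 5.39, 6.61 and 5.32 CPM in Htt-72Q 1 to 4, 3.03, 2.56, 2.58 and 2.16 CPM in Htt-25Q 1 to 4, and 2.38, 2.27, 2.32 and 2.41 CPM in control vector 1 to 4. The Htt-72Q libraries were above all others, at a log2 fold change of 1.33 ± 0.19 over control vector (adjusted p = 0.000208).

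Of 40 tested genes of DNA replication and the cell cycle, 9 rose, 1 fell and 30 were not called over control vector, beside 9.44% of all genes called higher and 13.7% called lower. Over Htt-25Q 4 rose, 1 fell and 35 were not called, beside 9.06% and 13.4% of all genes. Their summed level was 608 ± 31.7 CPM in Htt-72Q, against 502 ± 33.3 CPM in Htt-25Q and 479 ± 42.8 CPM in the control vector (SD, n = 4 each), with Htt-72Q above the other groups in every library. Cdc45, a part of the replicative helicase, had 26.4, 23.3, 14.3 and 15.3 CPM in Htt-72Q 1 to 4, 7.92, 7.95, 8.67 and 7.74 CPM in Htt-25Q 1 to 4, and 9.42, 10.9, 7.11 and 9.95 CPM in control vector 1 to 4. The Htt-72Q libraries lay above the other 8, by a log2 fold change of 1.08 ± 0.21 over control vector (adjusted p = 0.00188). E2f1, a transcription factor of the G1 to S transition, went the other way, at 3.98 ± 0.748, 8.32 ± 1.02 and 7.69 ± 0.408 CPM (log2 fold change -0.95 ± 0.18 against control vector, adjusted p = 0.00172). Tpx2 and Ccne2 rose over control vector, by 0.83 ± 0.19 and 0.86 ± 0.21 on the log2 scale (SE, edgeR adjusted p = 0.00653 and 0.00818). Mcm6 rose over Htt-25Q, by 0.61 ± 0.17 (adjusted p = 0.0186). Mki67, a marker of cycling cells, averaged 24.8 ± 7.56, 26.6 ± 3.57 and 25.5 ± 12.2 CPM, and was not called (adjusted p = 0.933 over control vector). It was picked after its value was seen and does not stand for the list.

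Markers of cell types were set beside these values. Among 15 neuron markers, 7 fell and none rose over control vector, beside 13.7% of all genes called lower and 9.44% called higher. Against Htt-25Q 6 fell and none rose, beside 13.4% and 9.06% of all genes. These shares of all genes stand beside the other marker lists as well. Slc17a7 was at 111 ± 33.8 CPM in Htt-72Q, against 290.03 ± 36.0 CPM in the control vector (SD, n = 4 each). No neural progenitor marker among 14 tested was called over control vector, and their sum was 1489 ± 124 CPM in Htt-72Q, against 1353 ± 74.4 CPM in Htt-25Q and 1482 ± 225 CPM in the control vector. No astrocyte or oligodendrocyte lineage marker, of 10 tested in each list, was called over control vector. Of 5 tested markers of fibroblast, mural and endothelial cells, Rgs5 fell in both Htt-72Q comparisons. Over Htt-25Q, Vim of the progenitor list rose, at 181 against 129 CPM, close to the threshold (edgeR adjusted p = 0.0496). Hes1 fell, at 2.49 against 4.54 CPM (adjusted p = 0.0364), and the myelin gene Mog fell, at 1.54 against 3.58 CPM (adjusted p = 0.0445). Whether the makeup of the cultures or the level per cell carried the histone differences was not tested.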

How the data were processed

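Per the submitters' processing notes, STAR 2.0.4b, Subread and featureCounts 1.45 were used with GRCm38; neither strandedness nor the treatment of multi-mapping reads is given in the sources used. The authors deposited, per the file headers, a count, a CPM and an RPKM for each of 41388 genes in each of 12 libraries. The deposited CPM and RPKM follow from the deposited counts to within 5.09e-10 and 3.20e-10, so the counts were used. No pair of libraries agreed within sampling noise (smallest chi-square per degree of freedom 8.84).

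The counts were tested with the edgeR 4.0.16 quasi-likelihood test (R 4.3.3), with TMM scaling, filterByExpr at a minimum count of 10, 1 fit of 12 libraries on 3 groups (9 residual degrees of freedom) and Benjamini-Hochberg adjustment over 14707 genes, two-sided. The procedure was tested on simulated counts. Library totals of 12.4 M to 27.5 M counts set the precision, and SDs are over 4 libraries. Alternatives were DESeq2 1.42.0, limma voom (limma 3.58.1), other scalings, filters, thresholds and blocks, and leaving out each library. The Gapdh split, cut at the largest gap in log2 Gapdh, and the restriction to members with at least 50% unique words were chosen after seeing the data. Residuals of libraries that share a preparation number and not a group correlated in 10 of 10 pairs (r 0.113 to 0.501), so the preparation numbers, whose meaning the labels do not state, pair libraries; the title numbers did so in 10 of 12 pairs. Control vector 2 carries another infection label than the other controls and was placed by its title.

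Genes, stem-loops and unique words come from GENCODE M21 on GRCm38, and promoters from RefSeq (GRCm38.p6). The gene list, other lists and tests were chosen with earlier results of these data known. Histone genes named are those called, the 12 with the highest mean, and, where under 5 were called, the 5 with the smallest p; of other lists, at most the 4 called genes with the smallest p. Others named (Hist1h2ac, Hist2h3c2, Npat, H3f3b, Mki67) were chosen after their values were seen. Reads of Hist1h2be, Hist3h2a and Hist1h4b may belong in part to genes that overlap them.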

Additional observations from a re-analysis of the deposited data

Results flagged for a closer look

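Each of 23 measures, 17 histone genes named by the rule above and 6 sums, was looked at in 3 groups of 4 libraries. Of the 69 groups, 7 held a library far from its 3 fellows. Hist1h2ac and Hist2h3c2, picked after their values were seen, were not among the 17. Hist1h2ac stood at 1.496 CPM in control vector 1, against 3.53 to 3.77 CPM in control vector 2 to 4. For independent groups with a normal spread, chance gives such a library in about 1 group in 20. The 6 sums contain the 17 genes, so the 69 groups are not independent and no excess is read from the 7. Among H4 genes, Htt-25Q 3 stood above the other Htt-25Q libraries in Hist1h4a (42.95 CPM against 16.9 to 19.6), Hist1h4c (56.2 CPM against 33.9 to 37.5) and Hist1h4f (36.1 CPM against 21.0 to 21.6). In the same library the summed H1 level was the lowest of its group, at 89.0 CPM against 134 to 139.98 CPM. Htt-25Q 3 is the only Htt-25Q library on the high side of the Gapdh split, and its part in these values was not tested. Hist1h2bf was highest in Htt-25Q 1 (3.25 CPM against 2.28 to 2.42) and in control vector 4 (3.05 CPM against 1.58 to 1.71). The summed H2A level was lowest in control vector 1, at 57.4 CPM against 83.4 to 87.4 CPM.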

How the results depend on the processing

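Htt-72Q against control vector gave 9 called histone genes; the count was 4 at an adjusted p under 0.01, 15 under 0.10, 14 with library totals only, 14 with DESeq2, 18 with the preparation block and 19 with preparations 27 and 27_1 as one. Leaving out each library gave 5 to 12, and omitting Htt-72Q 3 gave the 5. In Htt-72Q against Htt-25Q 5 were called, and the count was 2 under 0.01, 10 under 0.10, 8 with DESeq2, 3 with limma voom, 9 with only those 2 groups in the fit, 9 with preparations 27 and 27_1 as one, 3 with the Gapdh split as a term and 3 among members with at least 50% unique words. Leaving out each library gave 2 to 9: 2 without Htt-72Q 1, Htt-25Q 2 or Htt-25Q 4, 3 without Htt-72Q 2, Htt-72Q 3, control vector 2 or control vector 3, and 9 without control vector 1. Htt-25Q against control vector gave 0 in each alternative run. The share of all genes called moves with the setting too. Over control vector it was 13.4% higher and 17.2% lower with the preparation block, against 9.44% and 13.7% in the main fit. For most other settings of this section that share is not given. These counts alone therefore do not show a change particular to histone genes. The split of higher to lower calls was 7 to 2 and 3 to 2, and with library totals only it was 12 to 2 and 7 to 0. With upper-quartile scaling it was 10 to 2 and 4 to 0. A change of scaling moves the fold changes of all genes together. Their higher and lower shares under these scalings are not given, so the splits are not read as particular to histone genes.

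The replicate block by title number called 11 histone genes in Htt-72Q against control vector and 6 in Htt-72Q against Htt-25Q. The log2 ratio of the summed level, 0.48, 0.51 and -0.03 in the 3 comparisons, ran from 0.32 to 0.61, 0.46 to 0.57 and -0.19 to 0.096 with 1 library left out. For the genes described singly, 951 values kept their sign and side of the threshold, 68 lost a call and 43 gained one. The sign turned in 2, neither called: Hist1h3e in Htt-72Q against Htt-25Q, at -0.011 with the preparation block, and Hist2h4 in Htt-72Q against control vector, at -0.10 without control vector 1, in a range of -0.10 to 0.30 with 1 library left out. In Htt-25Q against control vector only the 5 genes of smallest p were followed this way. The causes were not tested. Shared coding sequence and 4 libraries per group limit what single members can show.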
